A study of Mus musculus with 6 samples.

Results

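*Arg1*, *Chil3*, *Saa3*, *Lyz2*, *Adgre1*, *Gpx3*, *Ms4a7* and *Pf4* are 8 genes of alternatively activated macrophages, of the acute phase reaction and of resident and recruited phagocytes. They were followed here through bulk RNA-seq libraries of cells sorted as CD8+ TRLs, the CD8+CD122+CD49dlow regulatory-like T cells of the mouse. The 8 symbols were taken as listed, from 24394 gene symbols in the count table and 12424 tested. The list was chosen by values measured in these same libraries, in which the genes stood high in brain, so their levels and differences are given as a description and carry no p-value. The study compared 3 groups of 2 libraries. The tMCAO brain group holds cells sorted from the brain 3 days after 60 minutes of transient middle cerebral artery occlusion (tMCAO), the tMCAO blood group holds cells from the blood after the same operation, and the sham blood group holds blood cells after sham surgery. All mice were WT males of 9 weeks on the C57BL/6NCrl background by their labels, and each library was made from 500 to 1000 sorted cells. A sham brain group was not analysed here, so tissue and stroke cannot be told apart in the brain libraries when these are set against sham blood.

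Alternative activation is the state that macrophages enter under the type 2 cytokines IL-4 and IL-13, which signal through a shared receptor chain and the transcription factor STAT6. Arginase 1, the chitinase-like protein encoded by *Chil3* and the mannose receptor are its standard mouse readouts, and *Arg1* draws arginine away from nitric oxide synthesis toward ornithine and polyamines. The acute phase reaction is driven by IL-6 and IL-1 through STAT3 and C/EBP factors, mostly in liver, but the mouse gene *Saa3* is made outside the liver, also by macrophages. In the brain, *Arg1* and *Chil3* are known from blood-derived macrophages that enter after injury, whereas *Ms4a7* and *Pf4* are known from border-associated macrophages.

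The libraries held 13793081 to 17149924 counts on genes. The sort gate should leave T cells, and the 16 T cell and sort markers summed to 98.1 to 119 CPM (counts scaled to library size after TMM normalization, a correction for library composition) in tMCAO brain, 12240 to 16413 CPM in tMCAO blood and 10909 to 11181 CPM in sham blood. The brain libraries therefore went against their label, and both did, so no brain library could be set aside. In tMCAO brain the highest of the 16 was *Itga4*, at 43.1 and 37.7 CPM, which encodes the CD49d that the gate takes at a low level. All 16 T cell and sort markers were lower in tMCAO brain than in tMCAO blood by edgeR's quasi-likelihood test. Here and below a gene was called when its Benjamini-Hochberg adjusted p lay below 0.05 and its level differed by more than 2-fold. The 13 pan macrophage markers, among them *Csf1r*, *C1qb* and *Spi1*, summed to 32229 to 41144 CPM in tMCAO brain, 67.5 to 74.2 CPM in tMCAO blood and 151 to 239 CPM in sham blood. The 10 microglia markers summed to 8486 to 18496 CPM, 196 to 266 CPM and 188 to 256 CPM in the same groups, and the 11 border macrophage markers to 1177 to 1201 CPM, 0.466 to 1.29 CPM and 13.4 to 20.8 CPM. No marker of the pan macrophage and microglia lists was at 0 in either brain library. The part of these cell types in the results below was not tested, and in bulk RNA fewer cells of a type and less RNA per cell cannot be told apart.

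**Figure D1:**
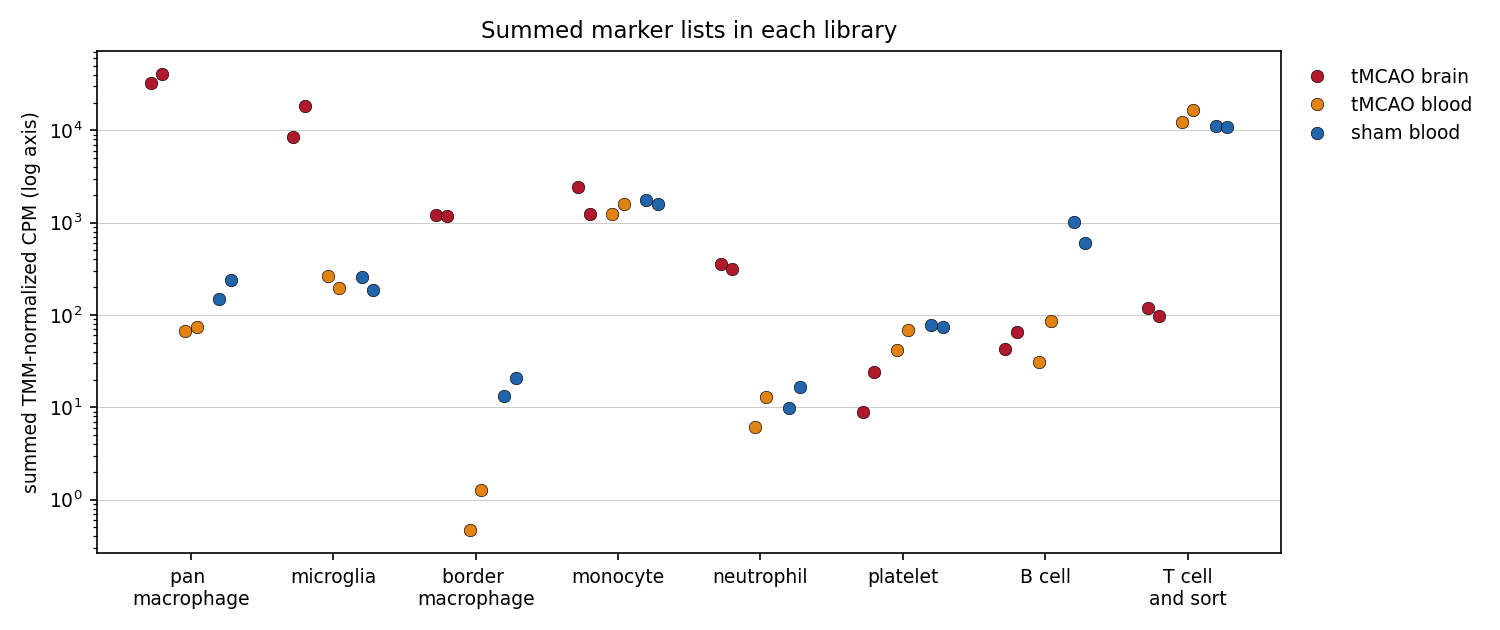
Summed TMM-normalized CPM of 8 marker lists (log axis), 1 point per library, with tMCAO brain in red, tMCAO blood in orange and sham blood in blue. The macrophage and microglia lists were higher in both brain libraries than in all 4 blood libraries, and the T cell and sort list was lower, at 98.1 to 119 CPM against 10909 to 16413 CPM.

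The promoters of the genes show which macrophage factor motifs lie next to their starts. PU.1, encoded by *Spi1*, is the master factor of myeloid cells and binds an ETS core, C/EBP factors drive myeloid and acute phase genes, and STAT6 carries the IL-4 signal. RefSeq windows of 300 bases (250 before and 50 after the start, build GRCm38.p6) matched 6 of the 8 genes. *Arg1* and *Adgre1* had no window. Both strands were searched for the ETS core GGAAGT, which reads ACTTCC on the other strand, for the C/EBP motif TTGCNNAA and for the STAT6 motif TTCNNNNGAA. The ETS core lay in the windows of 4 of the 6 genes (*Chil3*, *Lyz2*, *Ms4a7* and *Pf4*) and in 23.8% of 32851 mouse promoter windows. The C/EBP motif lay in those of 2 genes (*Saa3* and *Pf4*) and in 10.8% of all windows, and the STAT6 motif in that of 1 gene (*Ms4a7*) and in 6.95%. *Ms4a7* had a pair of annotated starts, and only the one shown held a motif. A match describes letters and is not evidence of binding. The last 120 bases before the start are shown for the 5 genes with a match, 5′ to 3′ on the strand of the gene, with matched motifs in capitals:
Chil3 (chr3:106167565-106167684, minus strand): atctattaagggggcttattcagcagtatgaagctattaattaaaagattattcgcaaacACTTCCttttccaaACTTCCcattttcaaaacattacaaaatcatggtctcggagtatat
Lyz2 (chr10:117282273-117282392, minus strand): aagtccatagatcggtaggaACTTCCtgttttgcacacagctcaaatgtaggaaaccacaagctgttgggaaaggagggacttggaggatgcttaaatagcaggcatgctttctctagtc
Ms4a7 (chr19:11336147-11336266, minus strand): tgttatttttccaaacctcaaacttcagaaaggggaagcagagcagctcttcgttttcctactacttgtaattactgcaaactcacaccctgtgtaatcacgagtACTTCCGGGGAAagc
Pf4 (chr5:90772315-90772434, plus strand): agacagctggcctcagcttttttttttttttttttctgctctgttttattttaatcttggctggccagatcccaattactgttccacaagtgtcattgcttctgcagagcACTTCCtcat
Saa3 (chr7:46715677-46715796, minus strand): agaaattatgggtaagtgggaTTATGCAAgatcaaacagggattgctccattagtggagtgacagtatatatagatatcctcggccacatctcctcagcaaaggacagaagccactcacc
The *Chil3* window holds the ETS core at 2 places, starting 60 and 46 bases before the start. In the *Ms4a7* window the ETS core overlaps the STAT6 motif, so the capitals there are 1 run. The C/EBP motif of *Pf4* starts 212 bases before the start and lies outside the stretch shown.

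The 8 genes together took 2.47% of the gene counts in tMCAO brain 1 (95% Wilson interval 2.46% to 2.48%) and 1.65% in tMCAO brain 2 (1.64% to 1.66%). They took 0.00462% (0.00430% to 0.00497%) and 0.00550% (0.00516% to 0.00587%) in tMCAO blood, and 0.0448% (0.0438% to 0.0458%) and 0.229% (0.227% to 0.231%) in sham blood. The intervals hold for the error of counting alone, as PCR copies of a molecule were not told apart. The groups did not overlap in this share, and sham blood stood between tMCAO brain and tMCAO blood. *Lyz2* and *Chil3* made up 83.2% and 82.1% of the counts of the 8 genes in tMCAO brain. In tMCAO blood *Pf4* made up 66.4% and 67.5%, and in sham blood *Lyz2* made up 92.4% and 94.5%. The set was thus led by different genes in the 3 groups.

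**Figure D2:**
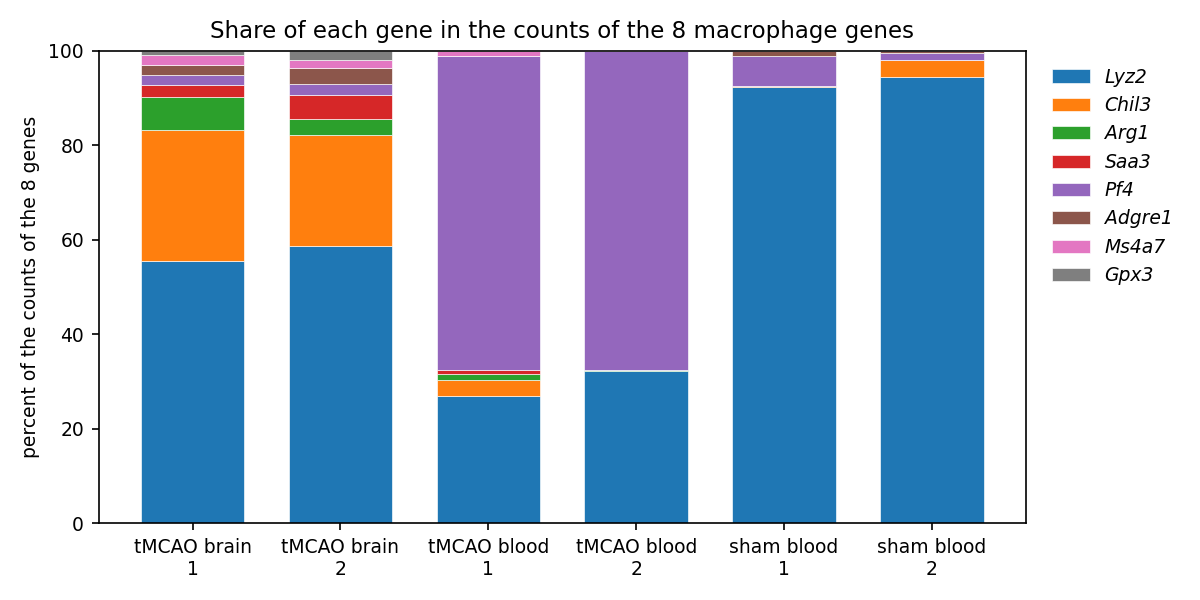
Percent of the summed counts of the 8 genes that each gene took in each library, with the brain libraries on the left. *Lyz2* and *Chil3* filled 82.1% to 83.2% in tMCAO brain, *Pf4* led in tMCAO blood and *Lyz2* in sham blood.

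Levels of different genes can be set side by side only per length, here as TMM-normalized CPM per kilobase of exon (GENCODE M21). On this scale *Lyz2* was the highest of the 8 in tMCAO brain at 11351 ± 2702 CPM per kb (SD, n = 2), and it ranked 3 and 5 among all genes of the 2 libraries. *Chil3* followed at 4175 ± 1608 CPM per kb, with ranks 10 and 22. *Pf4* stood at 809 ± 238, *Arg1* at 659 ± 456, *Saa3* at 360 ± 69.1, *Adgre1* at 215 ± 14.4, *Gpx3* at 190 ± 47.6 and *Ms4a7* at 114 ± 41.5 CPM per kb. Neighbours in this order whose brain libraries overlapped were *Pf4* with *Arg1*, *Arg1* with *Saa3*, and *Adgre1* with *Gpx3*, so their order is not settled by these libraries. The length used matters for some of the genes. In the FPKM values of the authors, which rest on transcript models, *Saa3* (1799 and 2297 FPKM) stood above *Pf4* (1280 and 842 FPKM) and *Arg1* (1198 and 399 FPKM), and *Ms4a7* (550 and 331 FPKM) above *Gpx3* (145 and 206 FPKM) and *Adgre1* (146 and 156 FPKM).

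**Figure D3:**
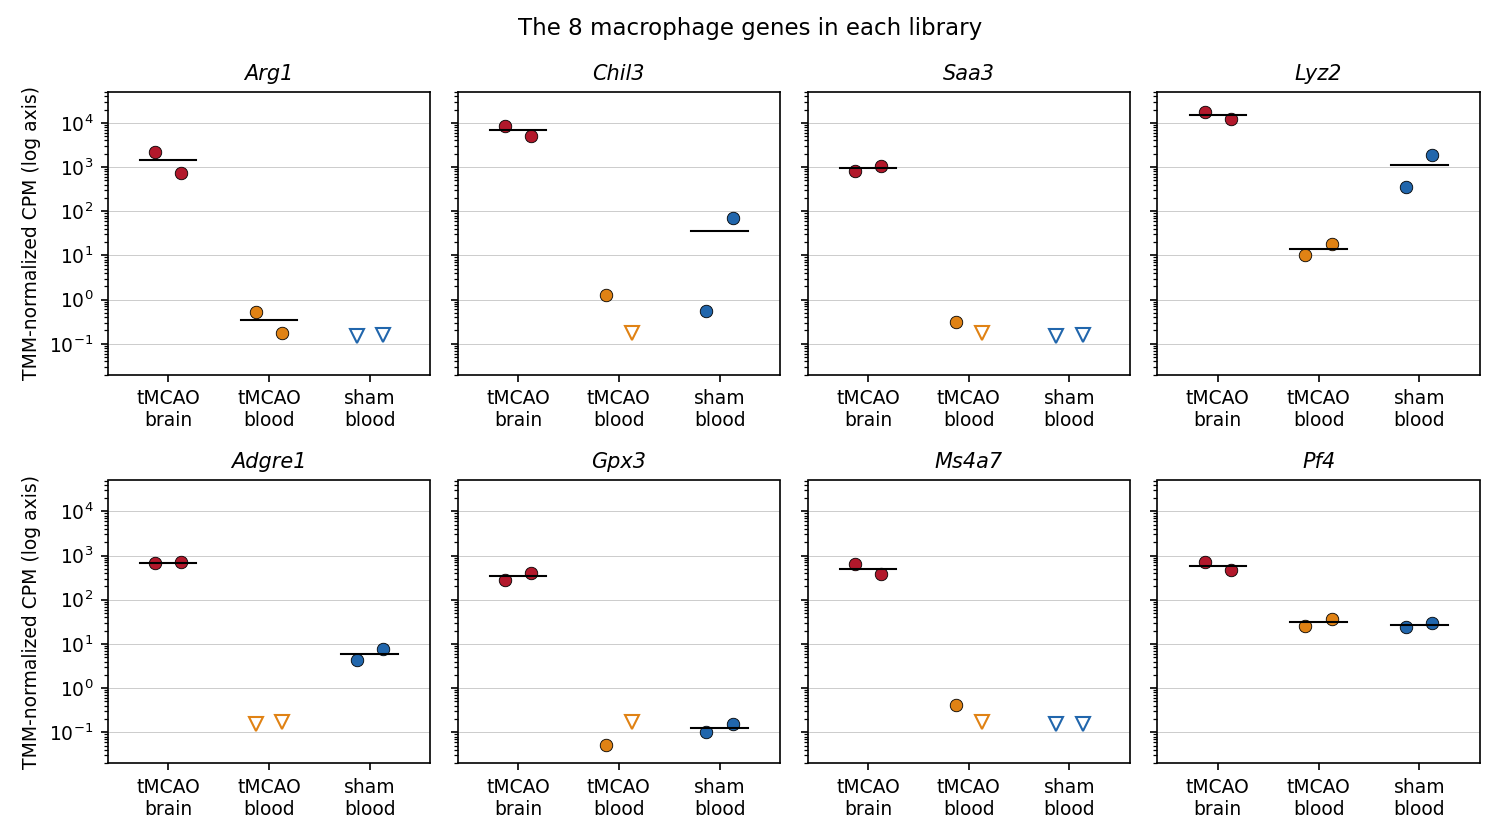
TMM-normalized CPM of each gene (log axis), 1 point per library, with tMCAO brain, tMCAO blood and sham blood from left to right and the mean as a line where both libraries had counts. Open triangles mark libraries with 0 counts at the level of 3 counts, which a count of 0 allows. All 8 genes were higher in both brain libraries than in any blood library.

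Of the genes of alternative activation, *Arg1* (chromosome 10, 24915221 to 24927484, minus strand of GRCm38, as all positions here) encodes arginase 1, which splits arginine into ornithine and urea. *Arg1* had 23730 and 8189 counts in tMCAO brain (2187 and 749 CPM), 10 and 3 counts in tMCAO blood (0.517 and 0.175 CPM) and none in sham blood. The brain libraries were far above all blood libraries, and they differed from each other by 2.92-fold, the widest gap of the 8 genes in brain. Only 3.29% of 11307 genes with at least 20 counts in brain differed more between these 2 libraries. *Arg1* was higher in tMCAO brain than in tMCAO blood by 11.99 on the log2 scale (SE 0.93), and at least 19091-fold higher than in sham blood, where the bound sets 3 counts for the group in place of 0.

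*Chil3* (chromosome 3, 106147554 to 106167564, minus strand), the gene of the secreted chitinase-like protein Ym1, had 94086 and 54221 counts in tMCAO brain (8669 and 4959 CPM). It had 25 and 0 counts in tMCAO blood (1.29 and 0 CPM), and 11 and 1381 counts in sham blood (0.561 and 70.9 CPM). The brain libraries lay above every blood library, whereas the blood groups overlapped because only sham blood 2 was high. *Chil3* was higher in tMCAO brain than in tMCAO blood by 13.30 on the log2 scale (SE 2.64), and than in sham blood by 7.57 (SE 2.09). The FPKM table of the authors joins *Chil3* with *Chil4*, at 7128 and 3565 FPKM in tMCAO brain and 13.8 and 25.3 FPKM in tMCAO blood. That gap is narrower, so the size of the difference from tMCAO blood depends on the table used. Its relative *Chil4* shares 8.53% of the 75-base windows of the longest *Chil3* transcript, and only 24 and 14 counts were assigned to *Chil4* in tMCAO brain and none in blood.

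*Saa3* (chromosome 7, 46711998 to 46715700, minus strand) encodes an acute phase serum amyloid A protein. It had 8807 and 11655 counts in tMCAO brain (812 and 1066 CPM), 6 and 0 counts in tMCAO blood (0.310 and 0 CPM) and none in sham blood. Both brain libraries were high and close to each other, and the blood libraries were at or near 0. *Saa3* was higher in tMCAO brain than in tMCAO blood by 12.43 on the log2 scale (SE 0.86) and at least 12239-fold higher than in sham blood. Short stretches of its longest transcript recur elsewhere, with 60 genes sharing a window and at most 1.13% of the windows shared with any 1 of them.

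*Gpx3* (chromosome 11, 54902453 to 54910377, plus strand) encodes the secreted glutathione peroxidase, which reduces peroxides outside cells. It had 3068 and 4425 counts in tMCAO brain (283 and 405 CPM), 1 and 0 counts in tMCAO blood and 2 and 3 counts in sham blood (0.102 and 0.154 CPM). The blood levels rest on so few counts that they cannot be told from each other. For tMCAO brain with tMCAO blood the ratio of normalized counts was 12531, with a 95% counting interval of 2248 to 495005, and the difference from sham blood was 11.31 on the log2 scale (SE 0.54).

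*Lyz2* (chromosome 10, 117277331 to 117282321, minus strand), the lysozyme of macrophages, monocytes and neutrophils, had 189403 and 135828 counts in tMCAO brain (17452 and 12424 CPM). It had 199 and 304 counts in tMCAO blood (10.3 and 17.8 CPM), and 7013 and 36118 counts in sham blood (358 and 1854 CPM). The 3 groups did not overlap, with tMCAO blood lowest, and sham blood 2 was 5.19-fold above sham blood 1. *Lyz2* was higher in tMCAO brain than in tMCAO blood by 10.06 on the log2 scale (SE 1.04) and than in sham blood by 3.76 (SE 0.79), which is 13.5-fold and the smallest gap to sham blood of the 8 genes. *Lyz1*, the neighbouring lysozyme gene, shares 5.96% of the 75-base windows of *Lyz2*. *Lyz2* had 12.8 and 12.9 counts per *Lyz1* count in tMCAO brain, 11.7 and 10.9 in tMCAO blood and 11.3 and 12.003 in sham blood, so the ratio of the genes was nearly the same in all 6 libraries while their levels differed widely.

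*Adgre1* (chromosome 17, 57358691 to 57483527, plus strand) encodes F4/80, the adhesion receptor used as a surface marker of mouse macrophages. It had 7185 and 7958 counts in tMCAO brain (662 and 728 CPM), none in tMCAO blood, and 85 and 149 counts in sham blood (4.33 and 7.65 CPM). The brain libraries differed by 1.10-fold, the narrowest gap of the 8 genes, and the 3 groups did not overlap. *Adgre1* was at least 8441-fold higher in tMCAO brain than in tMCAO blood, and higher than in sham blood by 6.86 on the log2 scale (SE 0.43).

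*Ms4a7* (chromosome 19, 11321039 to 11336146, minus strand) encodes a 4-span membrane protein of macrophages. It had 6920 and 4114 counts in tMCAO brain (638 and 376 CPM), 8 and 0 counts in tMCAO blood (0.414 and 0 CPM) and none in sham blood. Its pattern was that of *Saa3*, with high brain libraries and blood libraries at or near 0. *Ms4a7* was higher in tMCAO brain than in tMCAO blood by 11.14 on the log2 scale (SE 0.94) and at least 6599.5-fold higher than in sham blood.

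*Pf4* (chromosome 5, 90772435 to 90773383, plus strand) encodes the chemokine CXCL4, a platelet granule protein that macrophages also make. It had 7646 and 5053 counts in tMCAO brain (705 and 462 CPM), 491 and 637 counts in tMCAO blood (25.4 and 37.2 CPM) and 480 and 575 counts in sham blood (24.5 and 29.5 CPM). *Pf4* and *Lyz2* were the only 2 of the 8 genes with counts in every library, and the blood groups of *Pf4* overlapped. *Pf4* was higher in tMCAO brain than in tMCAO blood by 4.22 on the log2 scale (SE 0.37), which is 18.6-fold, and than in sham blood by 4.43 (SE 0.37), which is 21.6-fold. Beside *Pf4*, its neighbour *Ppbp*, the other abundant platelet chemokine, had 4.05 and 14.7 CPM in tMCAO brain, 20.03 and 42.6 CPM in tMCAO blood and 46.0 and 54.9 CPM in sham blood. There were 174 and 31.4 *Pf4* counts per *Ppbp* count in tMCAO brain, 1.27 and 0.875 in tMCAO blood and 0.532 and 0.538 in sham blood. The 11 platelet markers, *Ppbp* included, summed to 8.85 to 24.4 CPM in tMCAO brain, 41.7 to 69.6 CPM in tMCAO blood and 74.8 to 78.5 CPM in sham blood. *Ppbp* made up much of this sum. Of the 11 platelet markers 9 were tested, and 2 were called lower in tMCAO brain than in tMCAO blood by edgeR.

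The brain libraries did not differ in the same direction for all 8 genes. *Arg1*, *Chil3*, *Ms4a7*, *Pf4* and *Lyz2* were 2.92-, 1.75-, 1.69-, 1.52- and 1.40-fold higher in tMCAO brain 1, whereas *Gpx3*, *Saa3* and *Adgre1* were 1.43-, 1.31- and 1.10-fold higher in tMCAO brain 2. Only *Arg1* passed 2-fold, as did 10.5% of genes with at least 20 counts. Beside this, the 7 monocyte markers summed to 2439 CPM in tMCAO brain 1 and 1250 CPM in tMCAO brain 2, and the 10 microglia markers to 8486 CPM in tMCAO brain 1 and 18496 CPM in tMCAO brain 2. The part of these markers in the gaps was not tested.

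**Figure D4:**
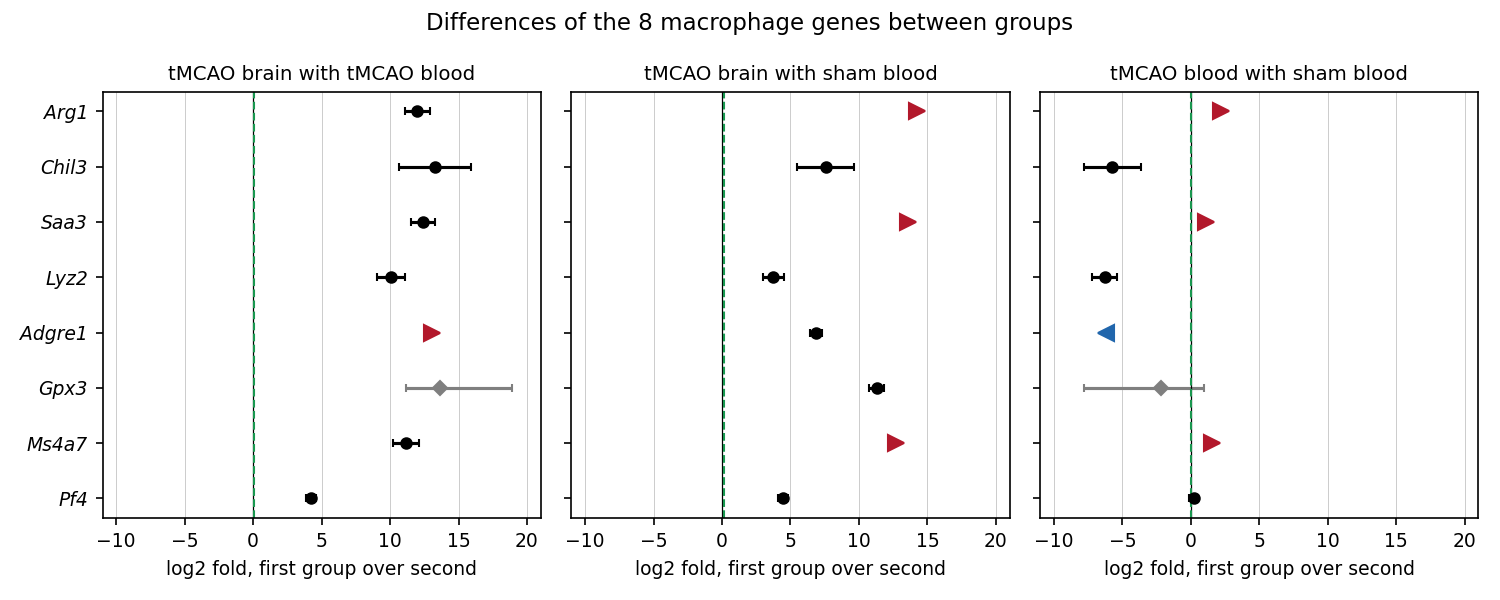
Differences of the 8 genes on the log2 scale, first group over second, in 3 comparisons. Black points are edgeR estimates with their SE, grey diamonds are count ratios with 95% counting intervals, red and blue triangles are lower bounds against a group at 0 counts, and the green dashed line is the median of all 12424 tested genes. All 8 genes lay to the right of the line for tMCAO brain with either blood group, and *Lyz2*, *Chil3*, *Adgre1* and *Gpx3*, the last with an interval that crosses the line, lay to the left for tMCAO blood with sham blood.

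Across the whole table, 20.4% of the 12424 tested genes were called higher in tMCAO brain than in tMCAO blood and 13.2% were called lower. All 8 genes were among those called higher, with a median log2 difference of 12.21 against 0.05 over all genes tested, also with *Adgre1* and *Gpx3* at their bound and ratio. For tMCAO brain with sham blood, 18.7% of genes were called higher and 11.8% lower, and again all 8 genes were higher, with a median of 9.44 against 0.13. Both brain libraries stood above all 4 blood libraries for 33.6% of tested genes and for all 8 of these genes. The genes were chosen for being high in brain, so nothing is read from these counts. The brain comparisons share their brain libraries, and their values are not independent.

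The size of several differences rested on 1 library. In tMCAO brain with tMCAO blood, *Arg1* had a log2 difference of 10.95 without tMCAO brain 1, 12.96 without tMCAO blood 1 and 11.36 without tMCAO blood 2. All tMCAO blood counts of *Chil3*, *Saa3* and *Ms4a7* came from tMCAO blood 1, and without tMCAO blood 2 their log2 differences were 12.27, 11.45 and 10.15. Against sham blood, *Lyz2* had a log2 difference of 3.00 when sham blood 1 was left out and 5.38 when sham blood 2 was, and *Chil3* of 6.58 and 13.54 in the same order. Against sham blood *Chil3* was not called without either tMCAO brain library (7.02 without tMCAO brain 1 and 7.80 without tMCAO brain 2), nor *Lyz2* without tMCAO brain 1 (3.40).

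Between the blood groups, 0% of tested genes were called higher in tMCAO blood and 0.821% lower. At an unadjusted p under 0.05 by edgeR, 243 genes were higher and 727 lower, and DESeq2 called 13 higher and 358 lower. Of the 8 genes, 2 were called lower, *Lyz2* by 78.8-fold (log2 difference -6.30, SE 0.89) and *Adgre1* by at least 72.7-fold. As in the brain comparisons the genes were chosen on these libraries, so the calls are a description and nothing is read from their count. Neither gene was called when either brain library or the whole brain group was left out of the fit, nor was *Lyz2* without tMCAO blood 2, although the log2 difference of *Lyz2* was -6.31 without either brain library and -6.78 without tMCAO blood 2. *Chil3* had a log2 difference of -5.73 (SE 2.05), and without sham blood 2 it was 0.24, with the sign turned, and without tMCAO blood 1 it was -12.12. *Pf4* differed by 0.21 (SE 0.33), less than its spread, and by -0.12 without tMCAO blood 2. *Arg1*, *Saa3* and *Ms4a7*, at 0 in sham blood, were at least 4.65-, 2.15- and 2.86-fold higher in tMCAO blood, on 13, 6 and 8 counts in all, and these bounds cover counting error only. For *Gpx3* the ratio of tMCAO blood to sham blood was 0.215, with a counting interval of 0.00454 to 1.92.

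The sham blood libraries stood apart from each other in *Chil3* and *Lyz2*. *Chil3* was 126-fold higher in sham blood 2 than in sham blood 1, a gap exceeded by 0.0176% of 11362 genes with at least 20 counts in sham blood, and *Lyz2* was 5.19-fold higher, a gap exceeded by 0.634%. *Pf4* differed by 1.21-fold and *Adgre1* by 1.77-fold between the same libraries. Other myeloid genes went both ways between these libraries. *Cd14*, the lipopolysaccharide coreceptor, had 0.0510 and 29.6 CPM in sham blood 1 and 2, *F13a1*, a monocyte gene, 9.13 and 58.0 CPM, *Hp*, which encodes haptoglobin, 1.17 and 28.0 CPM, and *Il1b* 9.38 and 53.7 CPM. In the other direction, *Cx3cr1* had 50.2 and 23.0 CPM, *Mrc1* 2.45 and 0.821 CPM and *Csf3r* 3.82 and 1.39 CPM in sham blood 1 and 2. *Ly6c2* had 1393 and 1179 CPM, most of the sum of the 7 monocyte markers at 1744 and 1611 CPM. It also had 927 and 1366 CPM in tMCAO blood, where the pan macrophage markers summed to 67.5 and 74.2 CPM. Neither *Ly6c2* nor that sum can therefore be read as myeloid RNA alone in blood. The genes of this comparison of sham libraries, apart from *Chil3*, *Lyz2*, *Pf4* and *Adgre1*, were chosen after their values were seen. The summed pan macrophage markers differed less, at 151 and 239 CPM, and the T cell and sort markers hardly, at 11181 and 10909 CPM. What set sham blood 2 apart was not tested.

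The close relatives of the 8 genes did not move as a block. Of 23 relatives, 16 were tested, and 8 were higher and 2 lower in tMCAO brain than in tMCAO blood, with a median log2 difference of 1.81. Over all genes tested, 20.4% were higher and 13.2% lower in that comparison. Against sham blood, 7 relatives were higher and 5 lower, beside 18.7% and 11.8% of all genes tested. *Arg2*, the mitochondrial arginase, was higher in tMCAO brain (127 ± 69.5 CPM) than in tMCAO blood (21.3 ± 8.01 CPM), with a log2 difference of 2.57 and adjusted p = 0.00661. Of the serum amyloid genes, *Saa1* had 1 count in each brain library, *Saa4* had 2 counts in tMCAO brain 1, *Saa2* had none in any library, and none of them had counts in blood, so nearly all serum amyloid counts were those of *Saa3*. *Chil1* and *Chia1*, further chitinase family genes, had at most 8 counts in any library. *Lyz1* was higher in tMCAO brain (log2 difference 9.85, SE 1.00, adjusted p = 0.000628).

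Among the glutathione peroxidases, the intracellular *Gpx1* (1993 ± 163 CPM in tMCAO brain and 293 ± 163 CPM in tMCAO blood, log2 difference 2.77, adjusted p = 0.00341) and the lipid peroxidase *Gpx4* (574 ± 79.3 and 279 ± 92.5 CPM, log2 difference 1.04, adjusted p = 0.0379) were higher in tMCAO brain. They were also well expressed in blood libraries, where *Gpx3* had at most 3 counts. *Gpx7* had adjusted p = 0.781, and *Gpx8* had 80 counts in tMCAO brain 2 and none in tMCAO brain 1. The *Ms4a* cluster split. *Ms4a6c* and *Ms4a6d* were higher in tMCAO brain, by 4.21 and 5.76 on the log2 scale (adjusted p = 0.00311 and 0.000202), whereas *Ms4a6b* and *Ms4a4b* were lower, by log2 differences of -1.94 and -7.63 (adjusted p = 0.00875 and 0.000109). *Ms4a4c* and the B cell gene *Ms4a1* did not pass (adjusted p = 0.959 and 0.123). *Adgre4* was at least 44.0-fold higher in tMCAO brain than in tMCAO blood (adjusted p = 0.0102), but lower in tMCAO brain than in sham blood (3.62 ± 2.90 and 36.1 ± 27.5 CPM, log2 difference -3.32, adjusted p = 0.0335), the opposite of *Adgre1*. *Adgre5* had adjusted p = 0.0697, the platelet chemokine *Ppbp* had adjusted p = 0.0748, and *Cxcl9* had no counts.

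The pathway that drives *Arg1* and *Chil3* was then read from a list of 25 genes, of which 19 were tested. In tMCAO brain with tMCAO blood 12 were higher and 2 lower, with a median log2 difference of 6.54 (5.67 with genes of a group at 0 set to their bound), and with sham blood 13 were higher and 2 lower, 7 and 8 of them higher without tMCAO brain 1 or 2. Over all genes tested, 20.4% were called higher and 13.2% lower in the first comparison, and 18.7% and 11.8% in the second. Here and in the next lists a gene is lower relative to the median of all genes. Scaling to the T cell markers moved that median to 7.12 on the log2 scale, and then 0 pathway genes were lower. The ligands were nearly absent: *Il13* had no counts, and *Il4* had 7 counts in sham blood 2 and none elsewhere. *Il4ra*, the IL-4 receptor chain, was higher in tMCAO brain (145 ± 55.7 CPM) than in tMCAO blood (10.2 ± 4.06 CPM, log2 difference 3.83, adjusted p = 0.000987). *Il13ra1*, the receptor chain that pairs with it on myeloid cells, had 309 ± 28.2 CPM in tMCAO brain and 0 counts in the tMCAO blood libraries, and was at least 3755-fold higher in brain (adjusted p = 0.000227). *Il2rg*, the common gamma chain that pairs with the same receptor on lymphoid cells, and the kinase gene *Jak1* were lower in tMCAO brain, by log2 differences of -4.15 and -2.03 (adjusted p = 0.00298 and 0.00448). *Stat6* had 138 ± 34.0 CPM in tMCAO brain and 64.4 ± 35.6 CPM in tMCAO blood and did not pass (adjusted p = 0.0865).

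Among the other genes of the list, *Mrc1*, the mannose receptor, had 317 ± 19.5 CPM in tMCAO brain and 0 counts in the tMCAO blood libraries. It was at least 3845-fold higher in brain (adjusted p = 0.000261). *Mrc1* and *Cd163* also stand in the list of border macrophage markers. For them, and for the other genes of this and the next lists, pathway response and cell type cannot be told apart in these libraries. *Cd163*, the haptoglobin scavenger receptor, was at least 1502-fold higher (124 ± 43.0 CPM in tMCAO brain, adjusted p = 0.000351), the chemokine gene *Ccl24* at least 237-fold higher (19.6 ± 4.91 CPM, adjusted p = 0.00192), and *Klf4*, a factor that acts with STAT6, was higher by 5.67 on the log2 scale (SE 0.58, adjusted p = 0.000666). *Retnla*, which encodes the resistin-like protein Fizz1 and is a standard partner of *Arg1* and *Chil3* in mouse alternative activation, had no counts in any library, nor did *Ccl22*. At these depths a count of 0 in a library allows up to 3 counts.

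The arginine and polyamine list held 16 genes, of which 11 were tested, with 5 higher and 1 lower in tMCAO brain than in tMCAO blood and a median log2 difference of 0.96. The count higher was 1 without tMCAO brain 1 and 3 without tMCAO brain 2 or tMCAO blood 2. *Sat1*, which starts the breakdown of polyamines, was higher (2654 ± 366 CPM in tMCAO brain and 439 ± 88.9 CPM in tMCAO blood, log2 difference 2.60, adjusted p = 0.00107). Higher too were *Oat*, the ornithine aminotransferase (log2 difference 1.30, adjusted p = 0.0115), *Azin1*, the antizyme inhibitor (1.59, adjusted p = 0.0448), *Arg2*, and the arginine transporter *Slc7a2*, with a count ratio of 97.0 (counting interval 16.7 to 3896, adjusted p = 0.0265). *Sms*, the spermine synthase, was lower (log2 difference -1.86, adjusted p = 0.00453). *Odc1*, which turns ornithine into the first polyamine, had 126 ± 33.4 CPM in tMCAO brain and 64.8 ± 5.11 CPM in tMCAO blood and did not pass (adjusted p = 0.053). *Nos2*, the inducible nitric oxide synthase that uses the same substrate as *Arg1*, had 4 and 6 counts in tMCAO brain and none in blood, against 23730 and 8189 counts of *Arg1* in the same brain libraries.

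The acute phase list held 30 genes, of which 15 were tested, with 13 higher and 1 lower in tMCAO brain than in tMCAO blood and a median log2 difference of 5.84. Without tMCAO brain 2, 8 were higher. The inducing cytokine genes *Il1b* and *Il6* were higher in tMCAO brain than in tMCAO blood, as *Saa3* was. *Il1b* had 1495 and 1926 CPM in tMCAO brain and 0.414 and 0 CPM in tMCAO blood (log2 difference 12.90, adjusted p = 0.000831). *Il6* had 4.79 and 68.1 CPM in tMCAO brain and 0 counts in the tMCAO blood libraries, and was at least 444-fold higher in brain (adjusted p = 0.0258). *Saa3* differed by 1.31-fold between the same brain libraries. Both cytokine genes also had counts in sham blood, 35 in all for *Il6*, where *Saa3* had none. Whether these cytokines drove *Saa3* was not tested. *Cebpb* and *Cebpd*, which encode C/EBP factors, were higher by 5.59 and 5.84 on the log2 scale (adjusted p = 0.00158 and 0.000932). Whether these factors act on *Saa3* was not tested either. Of the receptors of microbial and damage products, *Tlr2* was higher by 9.41 (SE 1.51, adjusted p = 0.00384), *Tlr4* was at least 1012-fold higher (adjusted p = 0.000369) and *Fpr2*, a formyl peptide receptor that serum amyloid A can bind, was at least 123-fold higher (adjusted p = 0.00581). *Lcn2*, which encodes an iron-siderophore binding protein, had 12.5 and 64.8 CPM in tMCAO brain and 1 count in tMCAO blood 1 (adjusted p = 0.00325).

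Many secreted proteins of the acute phase list, most of them made in liver, were at or near 0. *Crp*, *Apcs*, *Hamp*, *Fga*, *Fgb*, *Ptx3*, *Saa2* and *Serpina3n* had no counts in any library, and *Orm1*, *Orm2*, *Hpx*, *Itih4* and *Fgg* had at most 5 counts. *Hp* was not, with 143 and 128 CPM in tMCAO brain and 0.103 and 0 CPM in tMCAO blood. *Serpina3g*, a serpin known from activated T cells, was the gene of the list that was lower in tMCAO brain (3.62 ± 2.38 CPM) than in tMCAO blood (267 ± 13.3 CPM, log2 difference -6.20, adjusted p = 0.000304).

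Classical activation, the state under interferon and microbial products, was followed through 14 genes, of which 10 were tested, with 7 higher in tMCAO brain than in tMCAO blood and a median log2 difference of 5.47. The count higher was 4 without either tMCAO brain library. *Tnf* had 310 and 1080 CPM in tMCAO brain and 0.207 and 0 CPM in tMCAO blood (log2 difference 12.54, adjusted p = 0.00162). The chemokine gene *Cxcl10*, the costimulatory *Cd86* and the factor *Irf5* were higher by 5.71, 2.46 and 6.90 on the log2 scale (adjusted p = 0.0024, 0.00424 and 0.00781). *Il12b* was at least 51.8-fold higher on 56 and 37 counts (adjusted p = 0.0137), and *Ptgs2*, the inducible cyclooxygenase, had 160 and 122 CPM in tMCAO brain and 1 count in tMCAO blood (adjusted p = 0.0143). Genes of both activation states were therefore higher in the brain libraries, while *Nos2* and *Retnla* were at or near 0. Against sham blood, 10 of 15 tested acute phase, 4 of 11 arginine and 5 of 10 classical activation genes were higher. In the acute phase and arginine lists 1 gene each was lower. Over all genes tested, 18.7% were higher and 11.8% lower. The arginine list had a median log2 difference of 0.93 there, against 0.13 over all genes tested. Without 1 library, the lowest of these counts higher were 5 acute phase genes (without tMCAO brain 2 or sham blood 1), 2 arginine genes (without any 1 of the tMCAO brain or sham blood libraries) and 2 classical activation genes (without tMCAO brain 2).

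**Figure D5:**
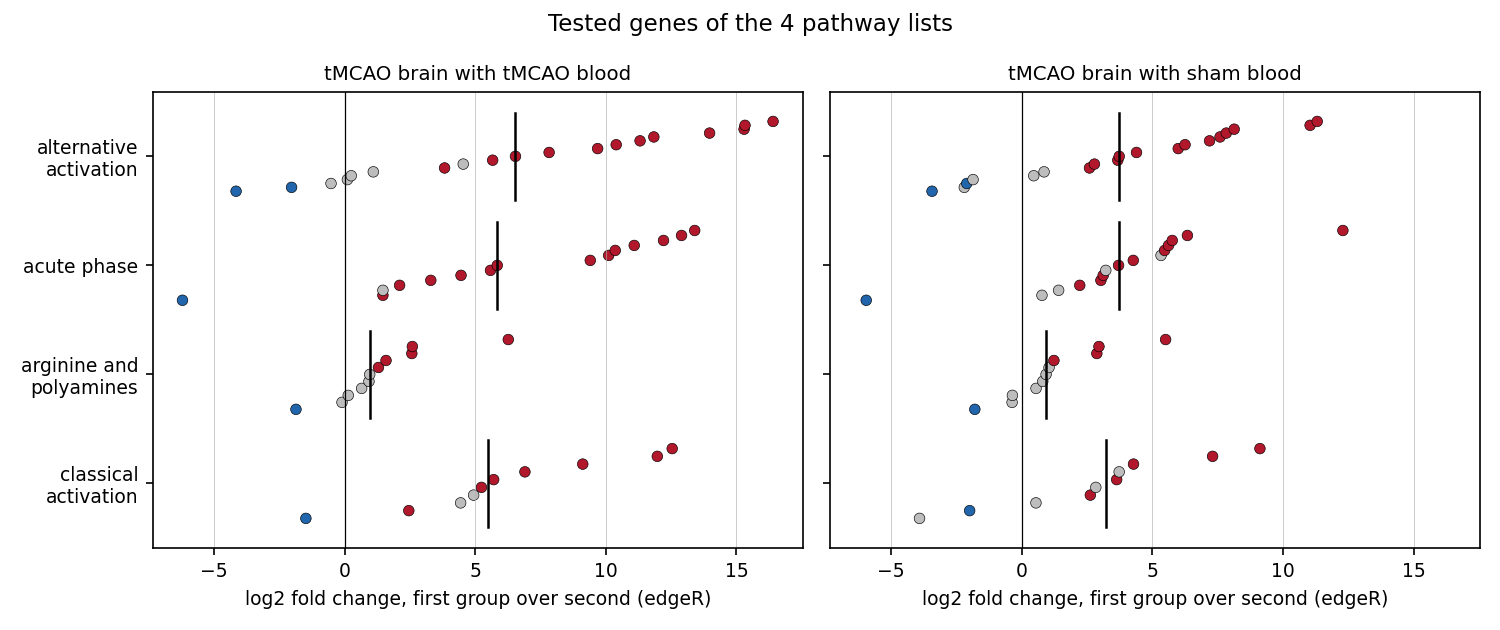
Log2 fold changes (edgeR, first group over second) of the tested genes of 4 pathway lists, 1 point per gene, for tMCAO brain with tMCAO blood (left) and with sham blood (right). Red and blue points passed the test as higher or lower, grey points did not, the black line is the median of the list, and the fitted value of a gene with a group at 0 counts depends on the prior count. Most genes of the alternative activation, acute phase and classical activation lists lay right of 0, and the arginine list lay closest to it, with a median of 0.96 in the left plot.

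Between the blood groups few genes of the pathway lists were called, although the medians of 3 of the 4 lists lay below that of all genes. The median log2 differences were -1.99 for alternative activation, -1.34 for the acute phase, 0.06 for arginine and polyamines and -2.35 for classical activation, against 0.03 over all genes tested. By edgeR, 0 of the 55 tested genes of the 4 lists were higher and 1 was lower in tMCAO blood than in sham blood. The lower gene was *Il13ra1*, with no counts in tMCAO blood and 8.82 and 20.6 CPM in sham blood, and was at least 178-fold lower (adjusted p = 0.00996). It was not called without either brain library, and 8 genes were lower without tMCAO blood 1, 6 without sham blood 1 and 4 without tMCAO blood 2. At an unadjusted p under 0.05, 0 were higher and 20 lower, DESeq2 called 0 higher and 12 lower, and limma-voom called 0 in either direction.

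For each of the 8 genes, the gene of most similar pattern was taken as the one with the smallest root mean square difference of centred log2(CPM + 1) over the 6 libraries, a description with no test. *Gpx3* lay closest to *P2ry13*, a purine receptor of microglia (difference 0.103), *Pf4* to *Ccl24* (0.195) and *Adgre1* to *Sirpa*, a receptor of myeloid cells (0.196). *Ms4a7* lay closest to *Rab3il1* (0.214), *Saa3* and *Arg1* both to *Dab2*, an endocytic adaptor (0.344 and 0.459), *Lyz2* to *Lyz1* (0.432) and *Chil3* to *Cd14* (0.812). The 6 points come from 3 groups of 2, so the measure mostly follows the group means. The added 1 also narrows the differences of genes at low levels. *Ccl24* had 23.0 and 16.1 CPM in tMCAO brain and no counts in blood, whereas *Pf4* had 24.5 to 37.2 CPM in blood. Their match thus rests on the added 1 and is not a likeness of levels or folds.

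The FPKM table of the authors gave a further look at the same reads. It had values in all 6 libraries for 6 of the 8 genes and none usable for *Chil3* and *Lyz2*, because these were joined with a neighbour in some libraries. *Lyz1* and *Lyz2* shared 1 value in tMCAO brain 1 (15769 FPKM) and sham blood 2 (2115 FPKM), and *Chil3* and *Chil4* shared 1 value in both tMCAO brain libraries (7128 and 3565 FPKM) and both tMCAO blood libraries (13.8 and 25.3 FPKM). The joined *Chil3* value of 25.3 FPKM in tMCAO blood 2 stood beside 0 counts of either gene, so the tables do not agree there. In tMCAO blood 1 the joined 13.8 FPKM stood beside 1.29 CPM of *Chil3*, whereas in tMCAO brain 1 7128 FPKM stood beside 8669 CPM. The tables thus differ in both tMCAO blood libraries. *Adgre1* had 146 and 156 FPKM in tMCAO brain, 0.0491 and 0 FPKM in tMCAO blood and 7.11 and 2.31 FPKM in sham blood, with the order of the sham libraries turned round against the counts. *Pf4* had 1280 and 842 FPKM in tMCAO brain, 68.2 and 75.2 FPKM in tMCAO blood and 63.1 and 68.7 FPKM in sham blood, and its groups lay as in the counts.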

How the data were processed

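cDNA of sorted cells was made with SMART-Seq chemistry and Nextera XT libraries were sequenced as 75-base pairs. Per the labels and the study's methods, the authors checked reads with FastQC and mapped them with TopHat to GRCm38 (mm10), and named Cufflinks for abundance. The methods name Ensembl for gene identifiers and R/Bioconductor for the counts and FPKM. The annotation release and the counting package with its version are not stated there. The deposited tables by the authors hold unnormalized counts for each gene symbol, and FPKM values.

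Lines with dates in place of symbols (27) and lines naming no gene (5) were left out. Reads outside features were 43.0% to 45.6% of reads and reads without a unique position 14.0% to 22.0%. In the FPKM table, lines with a missing value (1854) or joined symbols (1177) were not tested. Symbols matched GENCODE M21 for 23350 genes (95.7%). Genes passing filterByExpr (minimum count 10, total 15) were fitted over all 6 libraries in 1 model with edgeR 4.0.16 in R 4.3.3, with TMM scaling, the quasi-likelihood test and Benjamini-Hochberg adjustment over all 12424 genes. The TMM factors were 0.787 and 0.780 in tMCAO brain, 1.21 and 0.998 in tMCAO blood and 1.16 and 1.17 in sham blood. SEs are the size of the log2 difference over the square root of F. Bounds set a group without counts to 3 counts over the group, and ratios on 1 to 3 counts have exact 95% counting intervals. With 2 libraries a group no permutation test reaches 0.05. Nothing in the labels says that replicates came from separate animals, and p-values rest on the spread between 2 libraries, which may be technical only. The SD of the log2 ratio between replicates was 0.644 in tMCAO brain, 1.05 in tMCAO blood and 0.595 in sham blood, and the fit shares 1 estimate. The procedure was also run on simulated counts with few and moderate changes and a fixed spread. That run does not cover the wide differences, uneven spread and groups without counts of these libraries.

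The 8 genes, the gene lists and the tests were chosen with earlier results of these data known. Named are the 8 genes, their close relatives, and in each pathway list up to 6 genes higher and 6 lower in tMCAO brain than in tMCAO blood with the smallest p, with ligands, receptors and standard readouts whatever their values. Others (*Odc1*, *Hp*, *Ccl22*, *Amd1*, *Ass1*, *Oaz1*, other secreted acute phase proteins, neutrophil genes) were named after their values were seen. *Ms4a4a*, *Ly6g* and *Ighm*, which the lists name, were not analysed here, and 1 result of the classical activation list is not reported here. Alternatives were other scalings (RLE, library size, T cell markers), filters, DESeq2 1.42.0, limma-voom and limma-trend on log2(FPKM + pseudocount) with limma 3.58.1, the 2 groups alone, a replicate block, a threshold of 0.01 and leaving out each library. Tables were made with Python 3.11.15.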

Additional observations from a re-analysis of the deposited data

How the results depend on the processing

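The 8 genes were chosen for being high in these brain libraries, so that their brain calls persist is a description and nothing is read from it. The FPKM settings did not cover *Chil3* and *Lyz2*. Calls of the 8 genes in tMCAO brain with tMCAO blood kept their direction and side of the threshold in all 140 values over the alternatives. With sham blood 134 of 140 did, and *Chil3* and *Lyz2* lost their calls in the other 6. The count of the 8 genes called higher there was 6 to 8 without 1 library. For tMCAO blood with sham blood, *Chil3* reversed to 0.24 without sham blood 2 and *Pf4* to -0.12 without tMCAO blood 2, in ranges of -12.12 to 0.24 and -0.12 to 0.46 without 1 library. DESeq2 called 1 of the 8 genes higher (*Arg1*), and 0 were called lower by limma-voom, with the 2 groups alone or with FPKM and a pseudocount of 1, 1 at a threshold of 0.01 or with a pseudocount of 0.1, and 0 to 2 without 1 library.

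T cell scaling moved the median of all genes to 7.12 (tMCAO brain with tMCAO blood) and 7.05 (with sham blood) and library size alone to -0.44 in both. A scaling shifts all genes of a library alike, so the distance of a gene from that median is nearly fixed in advance. For the lowest of the 8 genes it was 4.17 and 3.62 in the chosen fit and 4.10 and 3.58 under T cell scaling. Nothing is read from it. With T cell scaling, 11829 genes were higher and 12 lower in tMCAO brain than in tMCAO blood (2530 and 1640 in the chosen fit), 11779 and 17 against sham blood (2326 and 1471), and 2 and 214 between the blood groups. Library size alone gave 2863 and 2709 lower in the brain comparisons. A threshold of 0.01 gave 1380 higher and 814 lower, 1125 and 737, and 38 lower between the blood groups. FPKM with pseudocounts of 1 and 0.1 gave 1622 and 1655 higher against tMCAO blood, 1518 and 1488 against sham blood, and 11 and 16 between the blood groups, where 52 were lower with 1. Between the blood groups, no filter gave 1 higher and 156 lower, DESeq2 13 and 358, limma-voom 22 lower and the 2 groups alone 0 lower. Without 1 library, 1230 to 3198 genes were higher and 765 to 2145 lower in the first comparison, 945 to 2944 and 694 to 2023 in the second, and 0 to 284 and 0 to 469 in the third. The lowest counts of the first and second came without a tMCAO brain library. In the third, 0 were lower without either brain library, and 284 were higher and 469 lower without tMCAO blood 1.

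Of the pathway genes, 37 were higher and 5 lower in tMCAO brain than in tMCAO blood, with 0 lower under T cell scaling and 26 to 39 higher and 5 lower without 1 library. Against sham blood there were 32 and 5, with 53 and 0 under T cell scaling, 17 higher at a threshold of 0.01, 9 and 8 lower with FPKM and pseudocounts of 1 and 0.1, and 17 to 38 higher and 3 to 6 lower without 1 library. Between the blood groups 1 was lower, against 2 with RLE or a minimum of 50 counts, 7 with T cell scaling, 6 with no filter, 12 with DESeq2, 0 with limma-voom, the 2 groups alone or FPKM with a pseudocount of 1, and 0 to 8 lower and 0 to 1 higher without 1 library. The arginine list ranged from 1 (without tMCAO brain 1) to 6 higher against tMCAO blood outside T cell scaling, and classical activation from 4 to 9. The cause of these differences was not tested.

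Replicate numbers did not pair the libraries (correlations of deviations 0.05, -0.04 and -0.03). With a replicate block, 2168 genes were higher and 1377 lower against tMCAO blood, 1949 and 1310 against sham blood, and 0 and 72 between the blood groups, and 8, 7 and 0 of the 8 genes were called higher, since *Chil3* did not pass against sham blood. Depth limits *Gpx3*, *Saa3*, *Ms4a7* and *Arg1* in blood, where they rest on 0 to 13 counts a group.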

Other observations

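*Oaz1*, which encodes the ornithine decarboxylase antizyme, had 1 count in tMCAO brain 2 and tMCAO blood 1 and none in the other libraries. *Amd1* and *Ass1* of the same arginine and polyamine list had none in any library. Reads without a unique position or outside features are not in these counts, so such values need not mean that a gene was silent. Whether this touched these genes was not tested. The neutrophil markers were uneven beside the *Lyz2* counts of tMCAO brain. The 13 markers, of which 12 were in the table, summed to 316 to 355 CPM in tMCAO brain, 6.16 to 13.04 CPM in tMCAO blood and 9.84 to 16.6 CPM in sham blood, and 4 of 6 tested were higher in tMCAO brain than in tMCAO blood. *Csf3r* had 1927 and 2010 counts in tMCAO brain, 1 and 6 in tMCAO blood and 75 and 27 in sham blood, and *Mmp8* had 704 and 371 counts in tMCAO brain, none in tMCAO blood and 0 and 134 in sham blood. Others were at or near 0: *Ngp* and *Camp* had no counts in any library, *Ltf* had 1 and 0 counts in tMCAO brain, and *Retnlg* 0 and 4. *S100a8* had 1076 and 900 counts in tMCAO brain, none in tMCAO blood, and 3 and 0 in sham blood, whereas *S100a9* had 17 and 55 counts in tMCAO brain and none in blood. The 8 B cell markers, of which 7 were in the table, summed to 43.0 to 65.9 CPM in tMCAO brain, 31.0 to 86.2 CPM in tMCAO blood and 602 to 1025 CPM in sham blood, the group in which *Lyz2* was also above tMCAO blood.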
